A study of Mus musculus with 6 samples.

Results

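The plasminogen activators, their receptors, their serpin inhibitors and the receptors that clear them were followed in brain RNA of mice with and without melanotransferrin. The set held 9 genes, Plg, Plat, Plau, Plaur, Plgrkt, Serpine2, Serpini1, Lrp1 and Vldlr, and took every probe set annotated to 1 of these symbols alone, however dim. Each probe set combines several short probes against the same transcript. The rule found 18 probe sets of the 45037 fitted, for 8 of the 9 genes. It found none for Serpine2, a serpin that blocks both activators and thrombin, so Serpine2 is not analysed here.

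The knockout group was 4 mice with both copies of the melanotransferrin gene (MTf -/-) disrupted and the strain label C57BL/6 - Lucy. The wild-type group was 2 mice (MTf +/+) with the strain label C57BL/6. All 6 were females of 123 days from 1 litter, untreated as far as the labels say, and each gave brain RNA to 1 Affymetrix mouse genome array. The sources used here state neither the allele, nor the meaning of "Lucy", nor the part of the brain taken. The comparison asks which brain transcripts differ between these groups. Genotype and strain label changed together, so a part of the strain in any difference cannot be told apart from that of missing melanotransferrin. The mice are numbered in order of deposit, and a number only names an array.

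Plasminogen is an inactive precursor that tissue-type activator (Plat) or urokinase (Plau) cuts to the protease plasmin. Plasmin dissolves fibrin and in brain also processes matrix proteins and growth factor precursors. Serpins such as neuroserpin (Serpini1) trap the activators in covalent complexes, which receptors of the low density lipoprotein receptor family, among them Lrp1 and Vldlr, take up. Melanotransferrin is an iron-binding protein of the transferrin family that has been reported to bind plasminogen and its activators, which is why these genes were grouped.

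Meltf, which encodes melanotransferrin, had 1 probe set, and it was dim. It read 80.7, 132.9, 155.9 and 84.1 in the knockout mice, against 146.5 and 228.7 in the wild-type mice. The groups overlapped, and the sources used here do not place its probes relative to the disrupted part, so this reading cannot serve as a check of the genotypes. The median signal over all probe sets was 238.2 to 278.3 on the knockout arrays, against 192.5 and 240.3 on wild-type arrays 1 and 2. Wild type 1 had 24.5% of probe sets below 49.6, the offset added before taking logs, against 17.6% to 20.2% on the other 5 arrays. Neuronal and myelin markers were bright in every mouse, with Snap25 from 54355 to 61027 in the knockout and 45275 and 60502 in wild type. Knockout 2 stood apart in its cerebellum markers. The 6 genes had a mean level of -3.83 on the log2 scale there, relative to each gene's mean. On each of the other arrays that level was 0.32 or more. Knockout 3 carried pituitary transcripts, with Gh at 5930 against 109.6 to 381.4 on the other 5 arrays.

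None of the 18 probe sets differed between knockout and wild type in the fit across all probe sets. The test was limma on log2(signal + 49.6), with Benjamini-Hochberg adjustment over all 45037 probe sets and a threshold of 0.05, and 0 of the 18 passed (adjusted p from 0.743 to 0.995). The background for that count is 0% of all probe sets, since 0 passed anywhere on the array. At an unadjusted p below 0.05 the count was again 0 of 18, against a background of 6.76%, made up of 4.92% higher and 1.84% lower in the knockout. Without wild type 2 the adjusted threshold passed 0.38% of all probe sets, and still 0 of the 18. The smallest unadjusted p of the set was 0.0674, for 1 Vldlr probe set.

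Of the 18, 12 were higher and 6 lower in the knockout, with a median log2 fold change of 0.023 against 0.078 over all probe sets. Set against that overall median, 7 lay above and 11 below. Complete separation of knockout from wild-type values was seen for 2 of the 18, where the background is 16.1%. These were 1 probe set of Lrp1, lower in the knockout (background 4.81%), and 1 of Plau, higher (background 11.3%). The 2-sided 95% confidence intervals were wide: the narrowest reached 0.28 on either side of its estimate on the log2 scale and the widest 0.99. A difference smaller than the reach of its own interval could not be told from 0 with 4 and 2 arrays. The intervals are not adjusted for the number of probe sets, so larger differences could also fail to pass. The smallest adjusted p of any probe set in limma was 0.349. When each array was centred on its own median, the middle of all probe sets shifted by -0.21 on the log2 scale, to -0.14, so a small positive value may turn negative with that scaling.

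**Figure D1:**
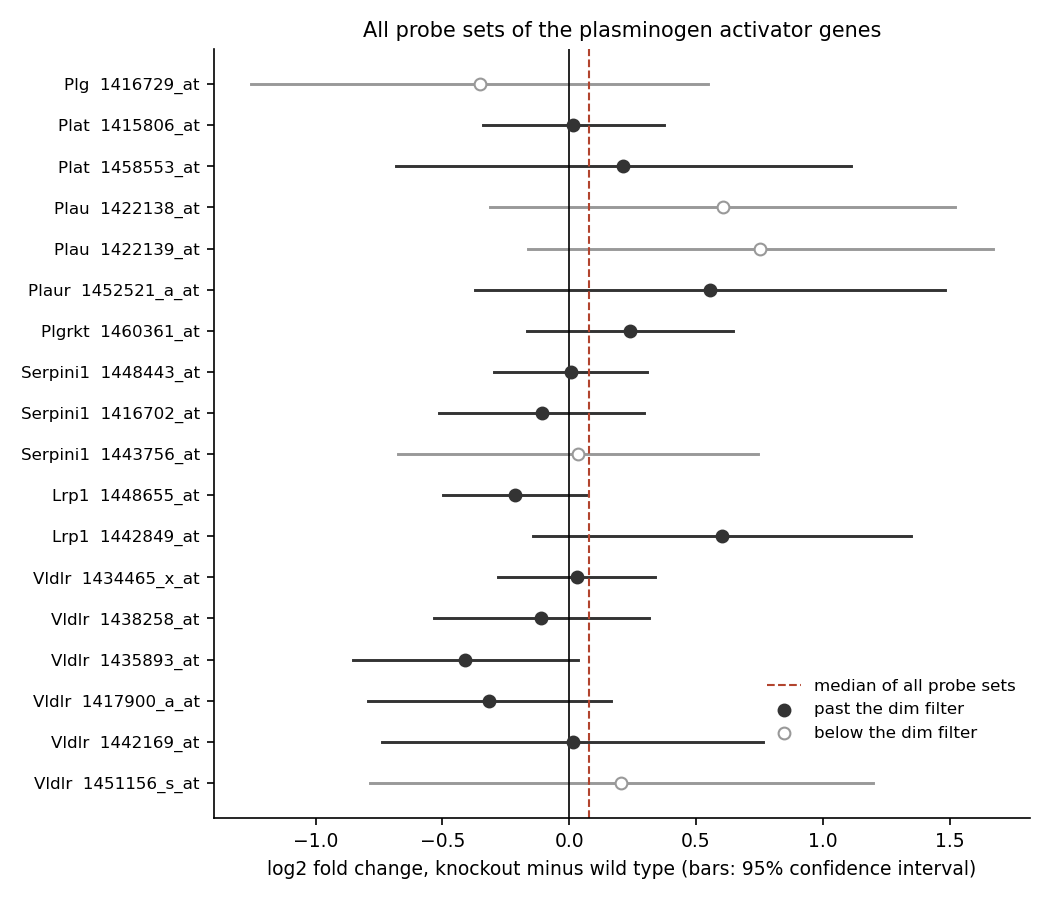
Log2 fold change, knockout minus wild type, of each of the 18 probe sets (points) with its 95% confidence interval (bars). Filled points passed the dim filter, open points did not, and the dashed line is the median of all probe sets, 0.078. Every interval includes 0.

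Dimmer probe sets of the members were mostly higher in the knockout, as they were on the whole array. The 9 probe sets with a mean signal below 1000 in both groups, a bound chosen after the values were seen, were higher in the knockout in 8 cases, and 6 of them had their lowest value in wild type 1. Over all 33254 such probe sets on the array 65.8% were higher in the knockout and 33.4% were lowest in wild type 1. Plau and Vldlr each gave more than 1 of the 9, and probe sets of the same gene are not independent. The part that the dimness of wild type 1 has in the values of these genes was not tested.

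Plg encodes plasminogen itself, which is made mainly in liver. Its only probe set read 33.0, 21.4, 106.1 and 27.5 in the knockout mice, against 38.6 and 105.6 in the wild-type mice. Knockout 3 and wild type 2 were high and the other 4 were below the offset, so the groups overlapped entirely. Knockout minus wild type came to -0.35 on the log2 scale (SE 0.40, limma adjusted p = 0.868), and to 0.055 with wild type 2 left out. Of 5 liver markers, 4 were higher in the knockout (Alb, Apoa1, Apoc3 and Fgb) and Ahsg was lower, with a median log2 fold change of 0.44. Their summed signal was 438.9 to 887.8 in the knockout and 268.7 to 582.4 in wild type, and Fgb, a fibrinogen chain, read no more than 5.1 on any array. Their part in the Plg values was not tested. Plg did not pass the filter on dim probe sets, which removes the 40% with the lowest mean, so the size of its values depends on the offset.

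Plat, the tissue-type activator, which neurons and vessels make and release, was the clearly measured activator. Its bright probe set (1415806_at) read 2924, 3006, 3167 and 2184 in the knockout mice, against 2677 and 2850 in the wild-type mice. Knockouts 1 to 3 were above both wild types and knockout 4 was below both. Knockout mice averaged 2820 ± 435.8 (SD, n = 4) and wild-type mice 2763 ± 122.4 (SD, n = 2). The difference in log2 signal was 0.016 with a 95% interval from -0.34 to 0.37 (limma adjusted p = 0.989). It was 0.13 without knockout 4 and -0.044 without knockout 3, and -0.20 after median centring, so no direction can be given. A weaker Plat probe set (1458553_at), past the dim filter, read 200.2, 149.3, 112.9 and 283.3 in the knockout, against 106.7 and 196.9 in wild type. It ordered the mice otherwise: knockout 4, the lowest on the bright probe set, was the highest here.

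Plau, the urokinase gene, was dim on both of its probe sets, and neither passed the dim filter. The brighter (1422138_at) read 195.9, 101.2, 191 and 200.5 in the knockout mice, against 52.7 and 149.8 in the wild-type mice. Knockouts 1, 3 and 4 lay above both wild types and knockout 2 lay between them. That gave a log2 fold change of 0.61 (SE 0.41, limma adjusted p = 0.783), and of 0.12 with wild type 1 or 1.09 with wild type 2 left out. The other (1422139_at) read 11.7, 5.2, 79.4 and 94.1 in the knockout, against 2.6 and 3.6 in wild type, so the groups did not overlap. All but 2 of these values were below the offset, which sets the size of the log2 fold change: 0.75 as fitted (limma adjusted p = 0.746), 0.27 with an offset 4 times as large and 1.54 with one 0.25 times as large.

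The receptors that hold the activators and plasminogen on cells had 1 probe set each. Plaur encodes the urokinase receptor, which is anchored in the membrane by a lipid and is carried by immune cells. It read 421.1, 267.5, 228.8 and 318.2 in the knockout mice, against 98.1 and 338.1 in the wild-type mice. All knockout values lay above wild type 1, and 3 of the 4 lay below wild type 2. Its log2 fold change came to 0.56 (SE 0.42, limma adjusted p = 0.799). Leaving out wild type 1 gave -0.14 and leaving out wild type 2 gave 1.25, so both its size and its sign depended on which wild-type mouse was kept. The 4 times larger offset gave 0.33. The summed signal of 6 microglia markers was 16853 to 21952 in the knockout and 19560 to 21760 in wild type, and 2 of these 6 markers were higher in the knockout. In RNA of whole tissue, fewer cells of a type and less RNA per cell cannot be told apart.

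Plgrkt encodes a small membrane protein that binds plasminogen through a lysine at its end. It read 1473, 1168, 1246 and 1034 in the knockout mice, against 897.4 and 1174 in the wild-type mice. The knockout mean was 1230 ± 183.8 (SD, n = 4) and the wild-type mean 1036 ± 195.4 (SD, n = 2), 1.18-fold higher in the knockout. The difference was about as large as the spread within either group, at 0.24 on the log2 scale with a 95% interval from -0.17 to 0.64 (limma adjusted p = 0.801). Wild type 1 was again the lowest, and without it the log2 fold change was 0.054, against 0.42 with wild type 2 left out and 0.15 with knockout 1 left out.

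**Figure D2:**
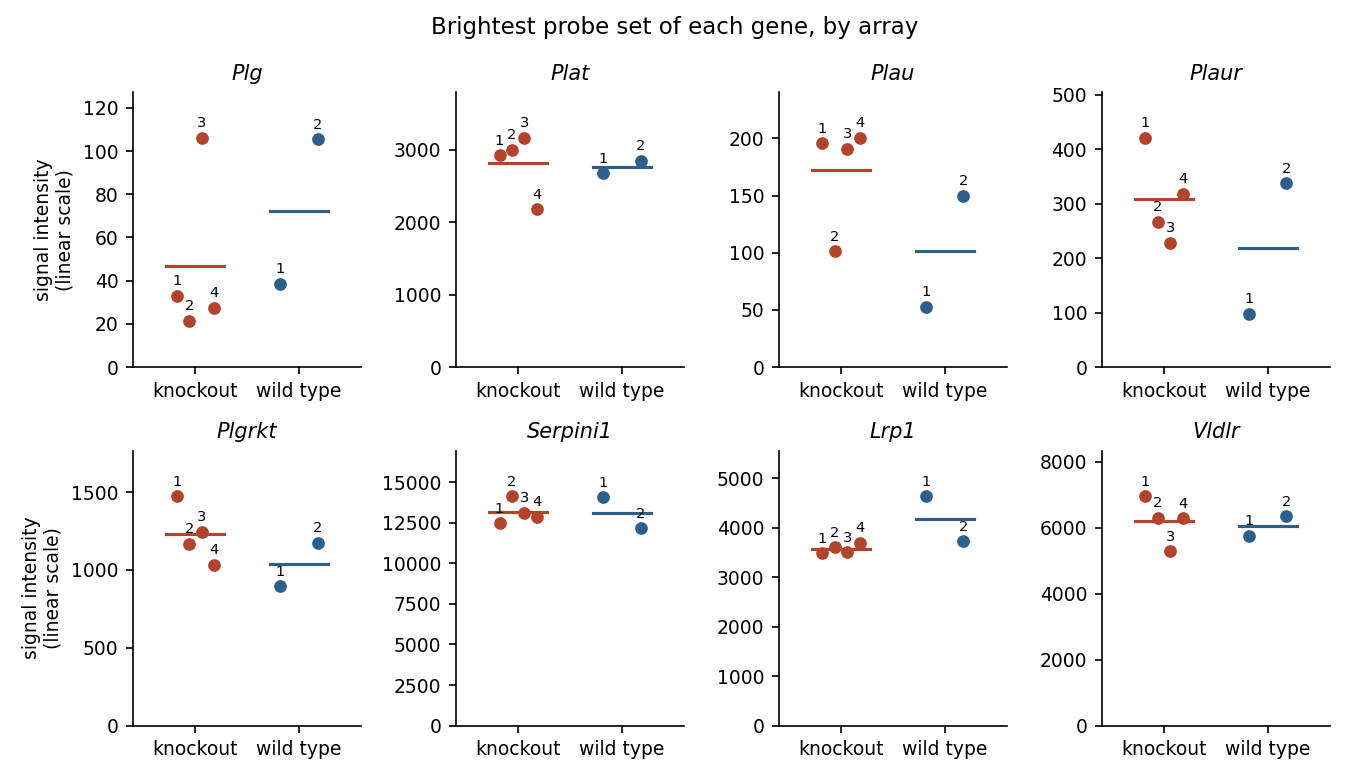
Signal intensity on a linear scale for the brightest probe set of each gene, knockout mice left and wild-type mice right. Points are single arrays with their numbers, and lines are group means. Lrp1 is the 1 gene of the 8 shown whose groups do not overlap, with knockouts from 3490 to 3694 and wild types at 4633 and 3730.

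Serpini1 encodes neuroserpin, the inhibitor of the tissue-type activator that neurons secrete, and its bright probe set had the smallest difference of the 18. That probe set (1448443_at) read 12482, 14121, 13108 and 12876 in the knockout mice, against 14055 and 12177 in the wild-type mice. The means were 13147 ± 699.1 (SD, n = 4) and 13116 ± 1329 (SD, n = 2), and every knockout value except that of knockout 2 lay between the wild types. Its log2 fold change was 0.0056 with a 95% interval from -0.30 to 0.31 (limma adjusted p = 0.995), from -0.098 without wild type 2 to 0.11 without wild type 1, and -0.21 after median centring. A second probe set (1416702_at) read 1867, 1499, 1246 and 1360 in the knockout, against 1787 and 1424 in wild type, a log2 difference of -0.11. Leaving out wild type 1 turned it to 0.050, and leaving out wild type 2 gave -0.27. The third (1443756_at) read at most 49.3 on any array, below the offset throughout, and carries no order.

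Serpini1 lies head to head with Pdcd10, which encodes an adaptor protein of brain vessels, so their promoter windows face each other. The 2 windows are shown because the pair gives the neuronal inhibitor a neighbour read in the same brains. Each runs from 250 bases before to 50 after the start in RefSeq, on build GRCm38.p6, and capitals mark the GC box GGGCGG or its reverse complement CCGCCC.
Serpini1, chr3:75557243-75557542, plus strand: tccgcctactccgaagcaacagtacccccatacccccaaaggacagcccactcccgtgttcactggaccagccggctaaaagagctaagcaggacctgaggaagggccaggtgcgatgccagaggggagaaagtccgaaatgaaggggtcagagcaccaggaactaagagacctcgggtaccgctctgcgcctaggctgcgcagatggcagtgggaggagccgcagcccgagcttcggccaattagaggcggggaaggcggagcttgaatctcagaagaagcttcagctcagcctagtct
Pdcd10, chr3:75556803-75557102, minus strand: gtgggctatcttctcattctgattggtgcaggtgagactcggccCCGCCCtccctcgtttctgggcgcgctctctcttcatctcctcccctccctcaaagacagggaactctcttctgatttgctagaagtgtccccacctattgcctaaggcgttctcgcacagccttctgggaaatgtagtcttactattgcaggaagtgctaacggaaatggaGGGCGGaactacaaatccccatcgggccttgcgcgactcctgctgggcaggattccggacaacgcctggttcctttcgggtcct
The Serpini1 window held 0 GC boxes and the Pdcd10 window 2, where 35.7% of all 32851 windows hold at least 1. Such a match is a description of letters and not of a binding site. On its bright probe set Pdcd10, named here after its values were seen, read 6324, 6175, 6163 and 5874 in the knockout mice, against 6493 and 6357 in the wild-type mice. All 4 knockout values lay below both wild types by a small margin, with a log2 fold change of -0.067 (SE 0.11, limma adjusted p = 0.914). On a second probe set Pdcd10 read 1567, 1620, 1994 and 1366 in the knockout, against 1540 and 1857 in wild type, and there the groups overlapped.

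Lrp1 encodes the large endocytic receptor that takes up complexes of activators with their inhibitors and itself binds the tissue-type activator. Its bright probe set (1448655_at) read 3490, 3606, 3510 and 3694 in the knockout mice, against 4633 and 3730 in the wild-type mice. The 4 knockout values lay within a narrow range and all below wild type 2, though the highest of them was close to it, while wild type 1 stood well above. Knockout mice averaged 3575 ± 94.2 (SD, n = 4) and wild-type mice 4181 ± 638.4 (SD, n = 2), 1.16-fold lower in the knockout. On the log2 scale this was -0.22 (SE 0.13, limma adjusted p = 0.758), or -0.061 with wild type 1 and -0.37 with wild type 2 left out.

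The other Lrp1 probe set pointed the opposite way. It (1442849_at) read 300.4, 286.6, 214.0 and 327.4 in the knockout mice, against 120.2 and 226.5 in the wild-type mice, with a log2 fold change of 0.60 (limma adjusted p = 0.748). Wild type 1 was the highest array on the bright Lrp1 probe set and the lowest on the weaker one. The mean of both probe sets gave a log2 fold change of 0.19, the reverse of the bright probe set alone. The weaker probe set gave 0.25 with wild type 1 left out, 0.95 with wild type 2 left out and 0.38 with the larger offset.

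Vldlr encodes a receptor that clears complexes of activators with inhibitors and, with Lrp8, receives the signal of reelin during brain layering. It had 6 probe sets, the most of any member, and 5 of them passed the dim filter. The lowest p belonged to 1435893_at, which read 2650, 2293, 1966 and 1514 in the knockout mice, against 2883 and 2634 in the wild-type mice. Knockouts 2 to 4 lay below both wild types, and knockout 1 lay just above wild type 2. The means were 2106 ± 483.4 (SD, n = 4) and 2758 ± 175.8 (SD, n = 2), 1.33-fold lower in the knockout. On the log2 scale this was -0.41 (SE 0.20) with a 95% interval from -0.85 to 0.035 (limma adjusted p = 0.743). It kept its sign with any 1 array left out, from -0.53 without knockout 1 to -0.26 without knockout 4.

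The other Vldlr probe sets differed in how far they followed this. The probe set 1417900_a_at read 2144, 1790, 1598 and 1181 in the knockout, against 2300 and 1836 in wild type, with a log2 fold change of -0.32 (limma adjusted p = 0.783). Leaving out either knockout 4 or wild type 1 brought that to -0.16. The probe set 1438258_at read 2779, 2685, 2147 and 1707 in the knockout, against 2419 and 2527 in wild type, a log2 difference of -0.11, and of 0.028 without knockout 4. On these 3 probe sets knockout 4 was the lowest mouse and knockout 3 the second lowest. The brightest, 1434465_x_at, whose suffix marks probes that may also bind other transcripts, read 6957, 6309, 5286 and 6288 in the knockout, against 5761 and 6357 in wild type. There knockout 4 was in the middle of the range and the log2 fold change was 0.030, or -0.18 after median centring. The weaker 1442169_at read 127.4 in knockout 4 and 176.2 to 209 on the other arrays, and 1451156_s_at, below the filter, read its highest value, 159.2, in knockout 4.

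**Figure D3:**
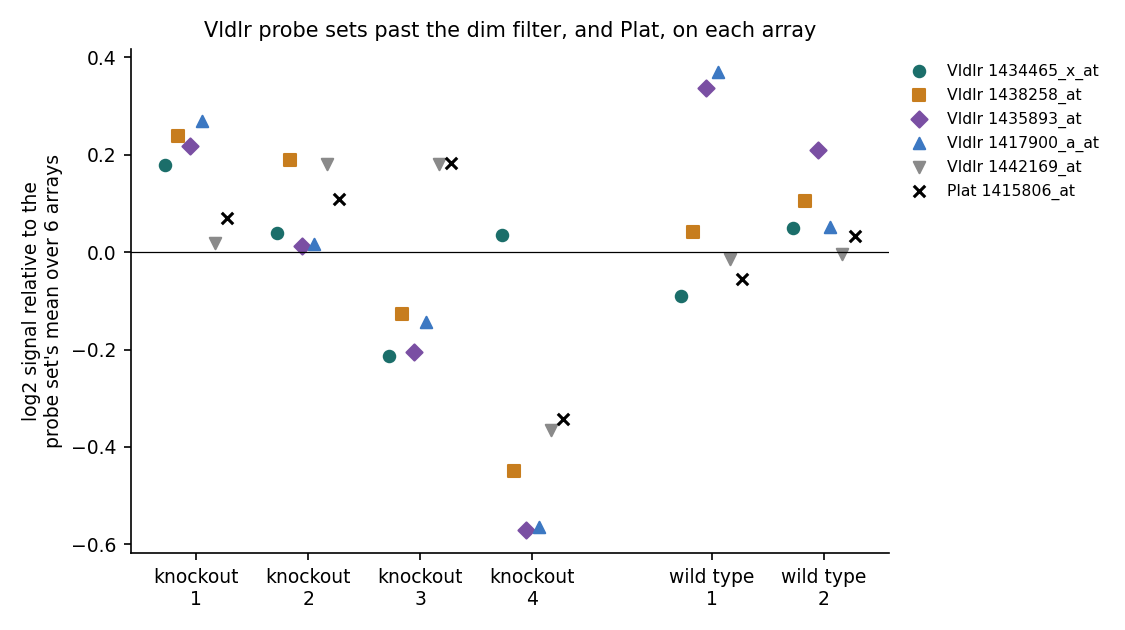
Log2 signal of the 5 Vldlr probe sets past the dim filter and of the bright Plat probe set on each array, relative to that probe set's mean over the 6 arrays. In knockout 4, 4 of the Vldlr probe sets and Plat have their lowest value, from -0.57 to -0.34, while 1434465_x_at stands at 0.035.

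RefSeq lists 2 starts for Vldlr, and both windows are shown because the probe sets of this gene disagree. The sources used here do not say which of the transcripts each probe set measures. Bounds, build and capitals are as for Serpini1.
Vldlr upstream start, chr19:27216234-27216533, plus strand: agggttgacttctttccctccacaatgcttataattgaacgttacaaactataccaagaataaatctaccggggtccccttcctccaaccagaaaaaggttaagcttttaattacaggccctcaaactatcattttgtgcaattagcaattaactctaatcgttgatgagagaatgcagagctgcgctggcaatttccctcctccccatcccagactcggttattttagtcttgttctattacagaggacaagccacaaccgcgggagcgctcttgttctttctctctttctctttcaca
Vldlr downstream start, chr19:27216770-27217069, plus strand: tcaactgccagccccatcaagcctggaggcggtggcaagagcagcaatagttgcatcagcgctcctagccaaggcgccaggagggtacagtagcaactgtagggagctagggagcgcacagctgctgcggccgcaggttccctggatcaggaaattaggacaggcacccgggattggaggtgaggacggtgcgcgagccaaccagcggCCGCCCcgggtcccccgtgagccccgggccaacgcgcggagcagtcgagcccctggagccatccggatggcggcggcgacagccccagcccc
The upstream window held 0 GC boxes and 43% G or C, and the downstream window 1 GC box and 68% G or C.

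The bright Plat probe set and most Vldlr probe sets shared their low array. Of the 18 member probe sets 5 were lowest in knockout 4, against a background of 14.3% of all probe sets. They were the bright Plat probe set and 4 of 6 Vldlr probe sets, and probe sets of the same gene are not independent. The weaker Plat probe set and Vldlr 1451156_s_at had their highest value there, 283.3 and 159.2. Dab1, the adaptor that carries the reelin signal from Vldlr into the cell, read 1836 in knockout 4 on its brightest probe set and 2741 to 3424 in the other knockouts, against 2506 and 2355 in wild type. Reln, the reelin gene, read 7709 in knockout 4, the highest of the knockouts, so the ligand did not share the low value. Knockout 4 had the lowest mean correlation with the other arrays, 0.957, where the others had 0.961 to 0.965. Whether the array or the mouse is behind these values was not tested.

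Reln itself was lowest in knockout 2, the mouse with low cerebellum markers. It read 7505, 5816, 6530 and 7709 in the knockout mice, against 9901 and 7213 in the wild-type mice. Its log2 fold change was -0.30 (limma adjusted p = 0.750), -0.22 without knockout 2, -0.075 without wild type 1 and -0.53 without wild type 2. Lrp8, the other reelin receptor, had a log2 fold change of 0.11 on its brightest probe set (limma adjusted p = 0.907) and -0.10 after median centring. Its other probe sets were lower in the knockout, by -0.18 on 1 past the dim filter and -0.084 on a dim one. Among the members, knockout 2 gave the lowest of the 6 values for Plg and the lowest knockout value for both Plau probe sets, all below the dim filter. Without it the log2 fold change was -0.019 for Plat on 1415806_at, -0.029 for Serpini1 on 1448443_at and -0.46 for Vldlr on 1435893_at. Whether the missing cerebellar signal has a part in any of these values was not tested.

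The balance of activator and inhibitor was read as a log2 ratio within each array, which shows only whether both moved unequally. For Plat over Serpini1 it was -2.08, -2.21, -2.03 and -2.53 in the knockout mice, against -2.37 and -2.08 in the wild-type mice. The groups overlapped and their means differed by 0.010, with knockout 4 again the lowest. With 1 array left out this difference ran from -0.14 (wild type 1) to 0.16 (wild type 2), so it has no settled sign. For Plat over Lrp1 it was -0.25, -0.26, -0.15 and -0.74 in the knockout, against -0.78 and -0.38 in wild type. Knockouts 1 to 3 lay above both wild types and knockout 4 between them, and the difference of the means was 0.23. Leaving out wild type 1 gave 0.032, and leaving out wild type 2 gave 0.43.

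Other genes of the system were taken from lists of 70 genes, of which 65 had a probe set, and 39 were higher and 26 lower in the knockout. Over all genes with 1 symbol 53.6% were higher, and the median log2 fold change was 0.068 for the 65 and 0.024 for all genes. In limma 0 of the 65 passed after adjustment, as did 0% of all genes, and 6 had an unadjusted p below 0.05, where the background is 6.49% of genes. Among relatives of the activators 5 of 8 were higher, among serpins and other inhibitors 7 of 11, and among receptors and cofactors 4 of 12. Among clearance receptors 5 of 7 were higher, in the reelin pathway 4 of 7, and among substrates and downstream genes 15 of 21. Lrp8, higher on its brightest probe set, stands in both the clearance and the reelin list and is counted once in the 65. All 6 with a low unadjusted p were higher in the knockout, where 62.3% of all genes with such a p were higher. Of the 6, 5 had their lowest value in wild type 1. Since all 6 were higher in the knockout at a low p, a lowest value in a wild type was nearly fixed. The 31.0% of all probe sets that were lowest in wild type 1 is therefore not a like background.

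Grin2b, a subunit of the NMDA glutamate receptor whose signalling the tissue-type activator can enhance, had the smallest p of these. It read 2081, 3039, 2648 and 2461 in the knockout mice, against 1244 and 1696 in the wild-type mice, with no overlap. In log2 units the difference was 0.78 (SE 0.18, limma adjusted p = 0.738), and 0.57 without wild type 1. Another bright Grin2b probe set read 1976, 1996, 1498 and 881.1 in the knockout, against 1537 and 1507 in wild type, a log2 fold change of -0.0081. One more Grin2b probe set past the dim filter gave 0.11, so the probe sets of this gene disagreed in size and sign.

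Bdnf, a growth factor whose precursor plasmin can cut, read 1736, 2175, 1804 and 1294 in the knockout mice, against 876.9 and 1302 in the wild-type mice. Knockout 4 alone lay among the wild types, and the log2 fold change was 0.66 (limma adjusted p = 0.738), or 0.39 without wild type 1 and 0.12 on a second probe set. Ncam1, an adhesion protein, and Crkl, an adaptor of the reelin pathway, had log2 fold changes of 0.47 and 0.44, with 0.23 and 0.21 without wild type 1. Of the 7 Ncam1 probe sets 4 were higher and 3 lower, while all 4 of Crkl were higher.

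Klkb1 and F11 encode plasma kallikrein and coagulation factor XI, proteases of the contact system. Klkb1 read 69.6, 91.1, 173.6 and 147.9 in the knockout, against 32.2 and 25.5 in wild type, and F11 read 95.2, 100.1, 69.2 and 32.3 in the knockout, against 6.4 and 15.4 in wild type. Neither passed the dim filter, and both wild-type means were below the offset, so the log2 fold changes of 1.07 and 0.998 were 0.48 and 0.37 with the larger offset.

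In the list of receptors and cofactors, 0 of the 12 genes had an unadjusted p below 0.05 in limma on the brightest probe set. The background is 6.49% of genes, and with so few genes a count of 0 is near that share. S100a10, which with Anxa2 forms a plasminogen receptor, read 2995, 2879, 3090 and 3082 in the knockout, against 3312 and 3433 in wild type, lower in every knockout mouse. The difference was small, at -0.16 on the log2 scale (SE 0.11, limma adjusted p = 0.788), and its other 2 probe sets were higher in the knockout, by 0.11 and 0.997 on the log2 scale. The last of these read 272.7, 189.8, 416.8 and 263.2 in the knockout, against 142.8 and 88.8 in wild type, with no overlap (limma unadjusted p = 0.0213, adjusted p = 0.738). Anxa2 had a log2 fold change of -0.075 on its brightest probe set and -0.028 on a dim one. A weaker Anxa2 probe set past the dim filter gave 0.57 (limma adjusted p = 0.785), so its probe sets disagreed in sign. That one read 265.8, 105.2, 180 and 240.2 in the knockout, against 95.2 and 130.2 in wild type, and the groups overlapped. The matrix protease gene Mmp9 had a log2 fold change of 0.22 (0.013 after quantile normalisation, 0.0050 after median centring and 0.13 without knockout 3). Pdgfra, the receptor of a growth factor that the tissue-type activator releases, had -0.19.

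**Figure D4:**
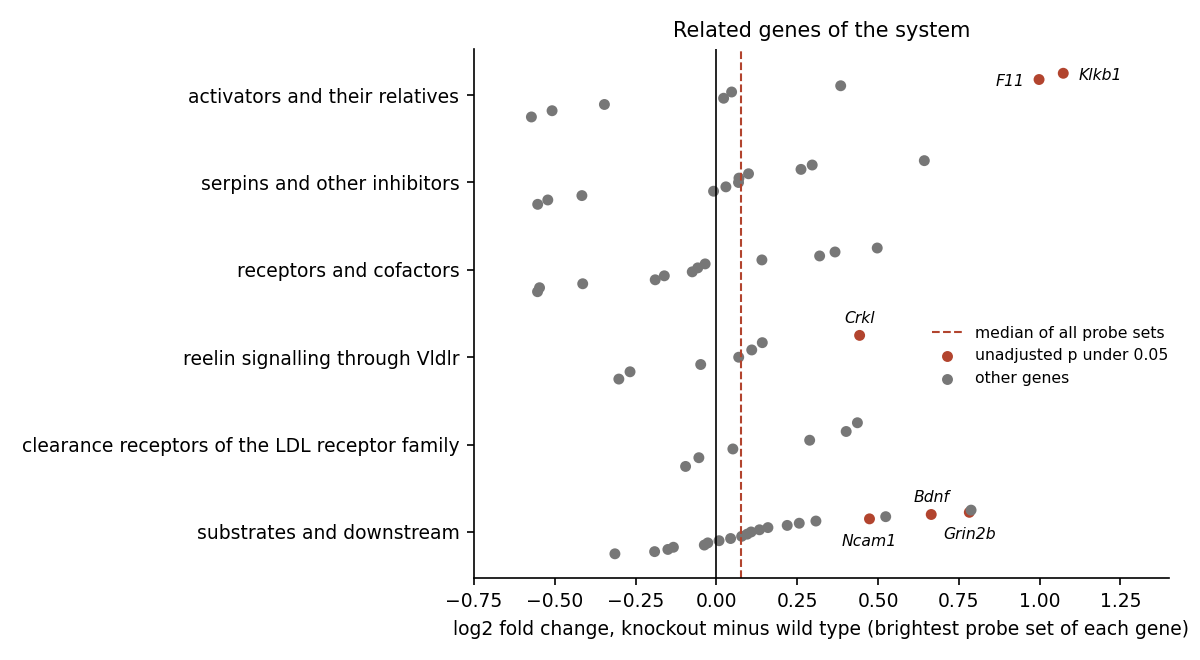
Log2 fold change, knockout minus wild type, of the brightest probe set of each of the 65 related genes by list, with Lrp8 shown once, under the reelin list. Named points have an unadjusted p below 0.05, and all 6 lie to the right of 0; none passed after adjustment in limma. The dashed line is the median of all probe sets, 0.078.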

How the data were processed

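The values deposited by the authors are linear intensities, 1 for each probe set on each array. The submitters' processing notes name GCOS 1.3 and nothing else, so how probes were summarised and scaled is not stated. Between the lowest and the highest 2% of values, every array averaged 1000.0. The 64 Affymetrix controls among 45101 probe sets were left out. Of the other 45037, 34945 had 1 gene symbol in the platform annotation, 932 several and 9160 none, and genes were named only from the first kind.

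Deposited signals were raised by an offset of 49.6, their 20th percentile, and taken to log2. Knockout was fitted against wild type in limma 3.58.1 (R 4.3.3; lmFit, then eBayes with a trend on intensity), with no covariate and no dim filter, on 4 residual degrees of freedom. Tests were 2-sided, with Benjamini-Hochberg adjustment over all probe sets. The fit was also run on simulated data with independent noise in each value. These held no shift of a whole array or of tissue content, so they do not show how such shifts act. The brightest probe set stands for a gene in lists. The rule named all members, related genes with an unadjusted p below 0.05, and Meltf, Anxa2, S100a10, Lrp8, Reln, Dab1, Bdnf, Mmp9 and Pdgfra. 1 further gene of the rule is not reported here. Members, lists and this rule were chosen with earlier results of these data known. Each array is a separate mouse, and their number limits the precision. Alternatives were 2 other offsets, quantile normalisation, median centring, a filter on the dimmest 40%, no trend, array weights, gene means and each array left out. Plots were drawn in Python 3.11.15.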

Additional observations from a re-analysis of the deposited data

Results flagged for a closer look

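Of 32 groups of 4 knockout arrays examined, for the 18 member probe sets and 14 related genes, 2 held an array that stood apart by its gap to the nearest other relative to the whole range. Chance alone marks about 1 group in 20. Plg read 106.1 in knockout 3 and 21.4 to 33.0 in the other knockouts, and wild type 2 read 105.6. Plau on 1422138_at read 101.2 in knockout 2 and 191 to 200.5 in the other knockouts. Neither probe set passed the dim filter.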

How the results depend on the processing

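No member and no related gene passed the adjusted threshold in limma under any alternative run. No paired analysis was possible because the labels give no replicate numbers shared between the groups. Ratios with Serpine2 were not run. The number of the 18 member probe sets with an unadjusted p below 0.05 was 0 as fitted, 2 after median centring (Vldlr 1435893_at and Lrp1 1448655_at) and 0 to 3 with 1 array left out, with 1 each without knockout 1 and knockout 2 and 3 without wild type 2. Over all probe sets that share was 6.76% as fitted, 8.76% after median centring, 5.90% without knockout 1, 6.04% without knockout 2, 3.61% without wild type 1 and 11.8% without wild type 2. Among the 65 related genes it was 6 as fitted, 11 after median centring and 2 to 11 with 1 array left out, with 2 without wild type 1 and 11 without wild type 2. On the whole array, 0 probe sets passed the adjusted threshold without wild type 1 and 171 without wild type 2, where 0.38% is the background. Of those with an unadjusted p below 0.05, 72.8% were higher in the knockout as fitted, 54.0% after quantile normalisation and 20.3% after median centring.

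Some values changed sign. After quantile normalisation the log2 fold change was -0.025 for Plat 1458553_at, -0.011 for Serpini1 1443756_at and -0.21 for Vldlr 1442169_at. After median centring it was -0.20 for Plat 1415806_at, -0.21 and -0.18 for Serpini1 1448443_at and 1443756_at, -0.18, -0.20 and -0.0092 for Vldlr 1434465_x_at, 1442169_at and 1451156_s_at, -0.10 for Lrp8 and -0.072 for Dab1. As gene means it was -0.023 for Serpini1, 0.19 for Lrp1 and -0.098 for Vldlr. With 1 array left out the range was -0.044 to 0.13 for Plat 1415806_at, -0.11 to 0.54 for Plat 1458553_at, -0.14 to 1.25 for Plaur, -0.76 to 0.055 for Plg, -0.098 to 0.11, -0.27 to 0.050 and -0.35 to 0.42 for Serpini1 1448443_at, 1416702_at and 1443756_at, -0.040 to 0.10, -0.20 to 0.028, -0.046 to 0.14 and -0.041 to 0.49 for Vldlr 1434465_x_at, 1438258_at, 1442169_at and 1451156_s_at, -0.46 to 0.081 for Pdgfra, -0.15 to 0.0035 for Anxa2 and -0.054 to 0.27 for Lrp8. Median centring shifted every log2 fold change by the same -0.21, so it turned only small positive values. Under the other alternatives the cause was not tested. In all, 31 of 237 values of members and 5 of 137 of related genes changed sign. The count for related genes leaves out the smaller offset, no trend, array weights and gene means, so the 2 totals cover unlike alternatives. Scanner files and detection calls were not used here, so signal over background is unknown for the dim probe sets.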

Other observations

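Among members past the dim filter, each judged by its brightest probe set alone, Plaur and Plgrkt had the widest range over the 6 arrays. It was 1.67 and 0.68 on the log2 scale. Weaker probe sets past the filter ranged more widely than that of Plgrkt, with 1.15 for Lrp1 1442849_at, 1.09 for Plat 1458553_at and 0.93 for Vldlr 1417900_a_at. The genes with the nearest pattern were sought among 23062 probe sets by root mean square distance of centred log2 values. For Plaur they were Dgkq at 0.081, Wdfy1 at 0.088 and Rbm12b2 at 0.10, and for Plgrkt Lama3 at 0.030, Bnc2 at 0.044 and 2610524H06Rik at 0.044. All 6 had their lowest value in wild type 1, as had both members, which a search for the nearest patterns all but fixes. Dgkq read 589.2, 428.9, 329.5 and 436.9 in the knockout mice, against 174.8 and 524.4 in the wild-type mice. With 6 points and so many probe sets, close patterns are common, and nothing is drawn from them about function.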
